A study of Arabidopsis thaliana with 6 samples.

Results

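The 10 genes described here encode chaperones of the endoplasmic reticulum (ER) of Arabidopsis thaliana and regulators of the unfolded protein response, and were taken by locus identifier from the 34484 identifiers of the deposited expression table. They are the Hsp70 chaperones BIP1, BIP2 and BIP3, the lectin chaperones CNX1 and CRT1, the disulfide isomerases PDIL1-1 and PDIL1-2, the transcription factors BZIP60 and BZIP28, and SDF2. All 10 loci were found, and the reference names CRT1 as CRT1a. RNA-seq of total RNA from mature main stems, labelled 42 days after flowering, compared γvpe mutant plants with wild type plants, 3 libraries each, all from a greenhouse kept at 20 °C under a photoperiod of 16 h light to 8 h dark. The γVPE gene encodes a vacuolar processing enzyme, a protease that matures proteins in the vacuole. The labels do not describe the mutant allele, the accession or whether plants were pooled. Replicates 1 to 3 appear in the titles, whereas the design text of the series states that none were made. The p-values below therefore reflect only how far these libraries scatter, and that scatter may be technical.

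The columns named WT were taken as wild type. The genotype of the WT_V columns is not written out in the header, and they were taken as the mutant as the remaining set. GAMMA-VPE itself (AT4G32940) stood at 325.4 to 328.1 FPKM in WT_V and 162.7 to 164.4 in WT, 2 times as high in the presumed mutant, which goes against a loss of this transcript. With the allele not described, the transcript level does not settle the assignment. All differences are given as libraries labelled WT_V against libraries labelled WT. FPKM is the number of fragments per kilobase of transcript per 1000000 fragments. The steps of the values gave a total of 40307735 to 51012955 fragments per library, so that a single fragment on a transcript of 1 kb added 0.0196 to 0.0248 FPKM. Stem wall markers were present in both sets, with the 7 genes summing to 119 to 126 FPKM in WT_V and 40.1 to 41.3 in WT. The same libraries differed in markers of other organs. The 9 seed markers summed to between 15600 and 15800 FPKM in WT_V and to at most 0.0353 in WT, where 8 of them (CRA1, CRB, CRC, SESA2, SESA3, SESA4, OLEO1 and OLEO2) were listed at 0 in every library. The 7 flower markers summed to 125 to 130 FPKM in WT_V and 29.4 to 32.5 in WT. These marker sums moved with every difference described below, and their part in the results was not tested. In bulk tissue, fewer cells of a type and less RNA per cell cannot be told apart.

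Proteins that enter the secretory pathway fold in the ER. BiP, an Hsp70 chaperone, binds exposed hydrophobic stretches with the help of J-domain partners. Calnexin and calreticulin hold glycoproteins through their sugar chains, and protein disulfide isomerases form and reshuffle disulfide bonds. When unfolded proteins accumulate, the membrane-anchored factor bZIP28 is released by proteolysis and moves to the nucleus. In the other arm, the kinase and ribonuclease IRE1 splices the BZIP60 messenger so that it encodes a soluble factor. Both factors switch on chaperone genes. BIP1 and BIP2 are expressed widely, whereas BIP3 is known as the copy induced by ER stress. FPKM per gene does not separate spliced from unspliced BZIP60 RNA.

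BIP1 and BIP2 are close copies, and their coding ends are printed with that of BIP3 to show how little separates the first pair and how far the third stands from them. The last 75 coding bases, read from RefSeq assembly TAIR10.1 on the coding strand and ending with the stop codon, have in capitals the codons of the HDEL signal that returns proteins to the ER.
BIP1: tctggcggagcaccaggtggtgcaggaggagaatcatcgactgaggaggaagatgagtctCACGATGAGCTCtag
BIP2: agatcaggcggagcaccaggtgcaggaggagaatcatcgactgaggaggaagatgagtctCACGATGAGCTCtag
BIP3: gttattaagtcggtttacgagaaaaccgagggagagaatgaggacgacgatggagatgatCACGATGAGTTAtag
Aligned over the whole coding sequence, BIP1 (2010 bases) and BIP2 (2022 bases) were identical in 1940 of 2025 columns, or 95.8%, with an identical run of up to 323 bases. BIP1 and BIP3 were identical in 70.4% and BIP2 and BIP3 in 70.1%. Of the 2687 stretches of 150 bases in the BIP1 transcript, 174 also occurred in BIP2. How the authors treated reads that match both genes is not given in the sources used here, so the split between these copies is uncertain. The count covers exact matches of 150 bases only and does not bound that uncertainty.

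The BiP genes went separate ways. BIP1 (AT5G28540) measured 103, 103 and 105 FPKM in WT_V and 107, 102 and 108 in WT. These values overlapped, and the log2 difference was -0.03 ± 0.0265 (SE, n = 3 per set, adjusted p = 0.36 by limma across all tested genes). BIP2 (AT5G42020) stood at 102, 104 and 105 FPKM in WT_V and at 57.4, 56.6 and 57.1 in WT. Every WT_V library lay above every WT library, the mean being 1.82 times as high (log2 difference 0.85 ± 0.024, adjusted p = 1.57e-10). Of all tested genes, 13.1% had a greater difference than BIP2, and 68.2% had a greater one than BIP1. BIP1 and BIP2 were therefore close to equal in WT_V, while BIP1 was ahead in WT. Their ratio within a library is not changed by multiplying the library by a factor, as median-of-ratios and TPM scaling do, but quantile normalization can change it. With deposited values it was 1.01, 0.997 and 0.995 in WT_V against 1.87, 1.80 and 1.89 in WT. On the log2 scale the ratio differed by -0.89 between the sets (exact two-sided permutation test, p = 0.1, the smallest that 3 against 3 libraries allow; adjusted over 5 such comparisons, p = 0.125), and by -0.826 after quantile normalization. The size of the ratio itself rests on the length the authors assigned to BIP2. The annotated exons span 2726 bases, at which the values did not come out as whole fragments. They did at 2452 bases, taken here as the nearer, and at 4904 bases. BIP1 and BIP2 together reached 207 ± 2.41 FPKM in the WT_V libraries and 163 ± 3.68 in the WT libraries (SD, n = 3), or 1.27 times, so that BIP2 accounted for the higher sum.

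**Figure D1:**
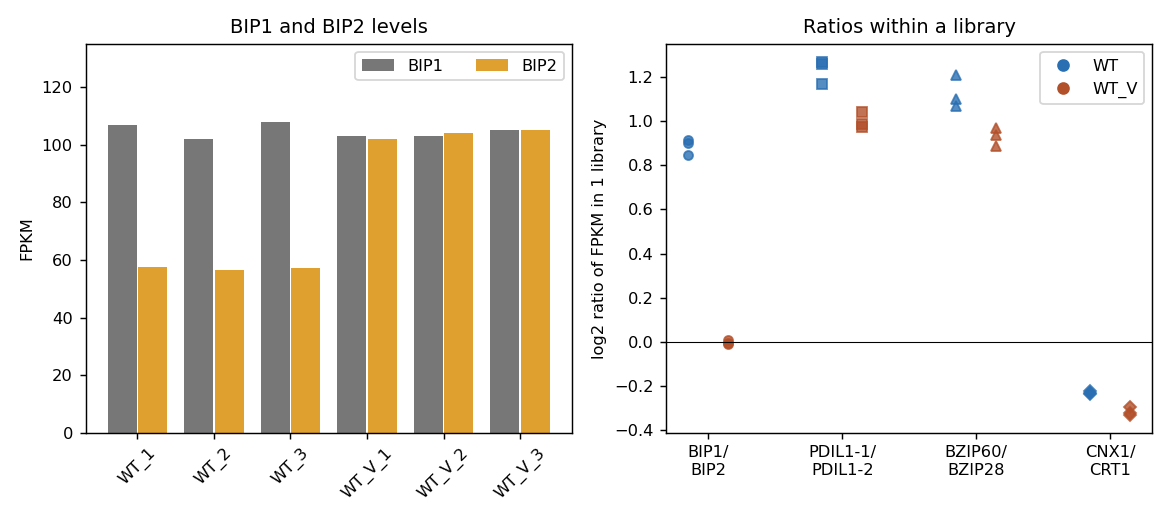
Left: FPKM of BIP1 and BIP2 in each of the 6 libraries, with bars from 0. Right: log2 ratios of FPKM between pairs of genes within 1 library, 1 point per library, with WT in blue and WT_V in orange. BIP1 is at 102 to 108 FPKM in all 6 libraries, while BIP2 is at 56.6 to 57.4 in WT and 102 to 105 in WT_V, so the BIP1 to BIP2 ratio falls to about 1.

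BIP3 (AT1G09080) was very low in both sets. It measured 0.0771, 0.41 and 0.301 FPKM in WT_V and 0.0236, 0.0715 and 0.266 in WT, which the FPKM steps resolve into 8, 44 and 30 fragments against 2, 7 and 23. The sets overlapped, and libraries of 1 set differed among themselves more than the sets did. BIP3 fell under the minimum mean of 1 FPKM for testing. When all genes above 0 were tested it was not called (log2 difference 0.17 ± 0.118, adjusted p = 0.257). BIP3 made up 0.126 ± 0.0813% of the summed BiP FPKM of WT_V and 0.0735 ± 0.0775% of that of WT (SD, n = 3), a difference of 0.0525 percentage points with p = 0.5 in the exact two-sided permutation test.

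The lectin chaperones were both higher in WT_V. CRT1 (AT1G56340), a soluble calreticulin, had the highest mean level of the 10 genes, at 138, 139 and 136 FPKM in WT_V and 107, 107 and 105 in WT. CNX1 (AT5G61790), the membrane-bound calnexin, stood at 112, 110 and 109 FPKM against 91.6, 91.8 and 89.5. Neither gene's values overlapped between the sets, as for 77.6% of all tested genes. CRT1 was 1.29 times its WT mean (log2 difference 0.37 ± 0.021, adjusted p = 5.25e-08), and CNX1 was 1.22 times its WT mean (0.28 ± 0.0233, adjusted p = 1.14e-06). The CNX1 to CRT1 ratio was 0.803 in WT_V and 0.852 in WT, lower in each WT_V library (exact permutation p = 0.1, adjusted p = 0.125). Within their families, CRT1 made up 55.4 ± 0.332% of the FPKM of CRT1, CRT2 and CRT3 in WT_V and 52.9 ± 0.336% in WT. CNX1 made up 76.5 ± 0.92% of the FPKM of CNX1 and CNX2 in WT_V and 73.7 ± 0.631% in WT.

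Both disulfide isomerases were higher in WT_V, the less abundant one by the larger factor. PDIL1-1 (AT1G21750) stood at 79.1, 79.1 and 83.6 FPKM in WT_V and at 62.8, 63.2 and 62.9 in WT, or 1.28 times (log2 difference 0.35 ± 0.0284, adjusted p = 8.91e-07). PDIL1-2 (AT1G77510) stood at 40.2, 39.9 and 40.8 FPKM against 27.9, 26.3 and 26.3, or 1.5 times (0.57 ± 0.0358, adjusted p = 1.11e-07). Neither gene's values overlapped between the sets, as for 77.6% of all tested genes. The PDIL1-1 to PDIL1-2 ratio was 1.97, 1.98 and 2.05 in WT_V and 2.25, 2.41 and 2.39 in WT. The log2 ratios differed by -0.232 (exact permutation p = 0.1, adjusted p = 0.125), and by -0.118 after quantile normalization. The coding sequences of this pair are 81.2% identical with no identical run over 35 bases, so no 150-base stretch was shared.

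The transcription factor genes of both arms of the response were higher in WT_V. BZIP60 (AT1G42990), the IRE1 target, stood at 45.9, 46.1 and 43.5 FPKM in WT_V and at 38.3, 37.1 and 37.3 in WT, or 1.2 times (log2 difference 0.26 ± 0.0338, adjusted p = 4.26e-05). BZIP28 (AT3G10800), the factor released by proteolysis, stood at 24.8, 23.6 and 22.7 FPKM against 16.6, 17.3 and 17.8, or 1.38 times (0.44 ± 0.0465, adjusted p = 7.71e-06). The BZIP60 to BZIP28 ratio was 1.91 in WT_V and 2.19 in WT, lower in every WT_V library (log2 difference -0.198, exact permutation p = 0.1, adjusted p = 0.125). After quantile normalization the difference was -0.073 and the sets overlapped (exact permutation p = 0.2). SDF2 (AT2G25110), which acts in a complex with BiP and the J-domain protein ERdj3B, differed least among the called genes. It measured 40.9, 42.2 and 43.2 FPKM in WT_V and 38, 39.0 and 36.9 in WT, or 1.11 times (0.14 ± 0.0345, adjusted p = 0.00294). That difference was below the median of all tested genes, since 52.2% of them had a greater one.

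**Figure D2:**
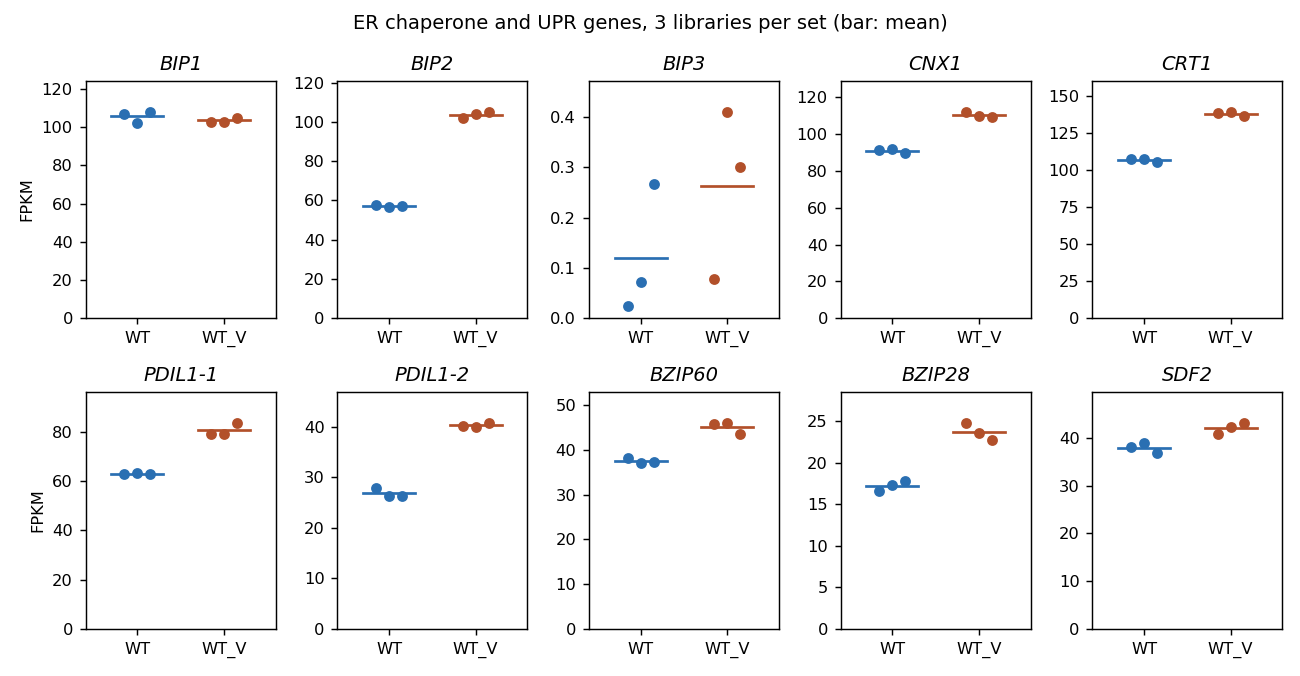
FPKM of the 10 genes in each library, 1 panel per gene with its own axis from 0. Points are libraries (WT blue, WT_V orange, n = 3 per set) and short bars are means. The sets are apart in 8 panels, while those of BIP1 and BIP3 overlap. Among all tested genes, the sets are apart in 77.6%.

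In order of their mean level over the 6 libraries, CRT1, BIP1, CNX1, BIP2 and PDIL1-1 led, followed by BZIP60, SDF2, PDIL1-2, BZIP28 and BIP3. The order differed between the sets. In WT_V, CNX1 stood above BIP1 in every library, and BIP1 overlapped with BIP2. SDF2 lay there between BZIP60 and PDIL1-2 without overlap. In WT, BIP1 overlapped with CRT1 and SDF2 with BZIP60, while BIP2 lay below PDIL1-1. The sum over the 10 genes was 688 ± 1.33 FPKM in WT_V and 543 ± 3.85 in WT, or 1.27 times.

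Of the 10 genes, 9 passed the filter, 8 of those were called higher in WT_V and 0 were called lower, against 51.9% of all 19144 tested genes called higher and 24.1% called lower (76.0% in either direction, 9931 higher and 4619 lower). The median log2 difference was 0.35 over the 9 genes and 0.17 over all tested genes. Values of the sets did not overlap for 8 of the 9 genes and for 77.6% of tested genes. Most tested genes were thus called different between these sets, and scaling moved the sizes of the differences. Under median-of-ratios scaling, which sets the typical expressed gene to equal levels, 7196 genes (37.7% of those tested) were called higher and 6797 (35.6%) lower, the median of all tested genes was 0.011, and 7 of the 9 genes were called higher. BIP1 was then called lower (log2 difference -0.20, adjusted p = 4.59e-05) and SDF2 was not called (-0.02, adjusted p = 0.571). With quantile normalization, 5711 genes (29.8%) were called higher and 8596 (44.9%) lower, and the median was -0.09. All 9 tested genes were then called higher, BIP1 at 0.06 with adjusted p = 0.0494. BIP2 was called higher under each scaling, at 0.68, 0.89 and 0.91 with median-of-ratios, quantile and TPM scaling. Relative to the median of all tested genes in the deposited scaling, BIP2 was 0.68 above, PDIL1-2 0.40, BZIP28 0.27, CRT1 0.20, PDIL1-1 0.18, CNX1 0.11 and BZIP60 0.09 above, while SDF2 stood at -0.02 and BIP1 at -0.19.

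**Figure D3:**
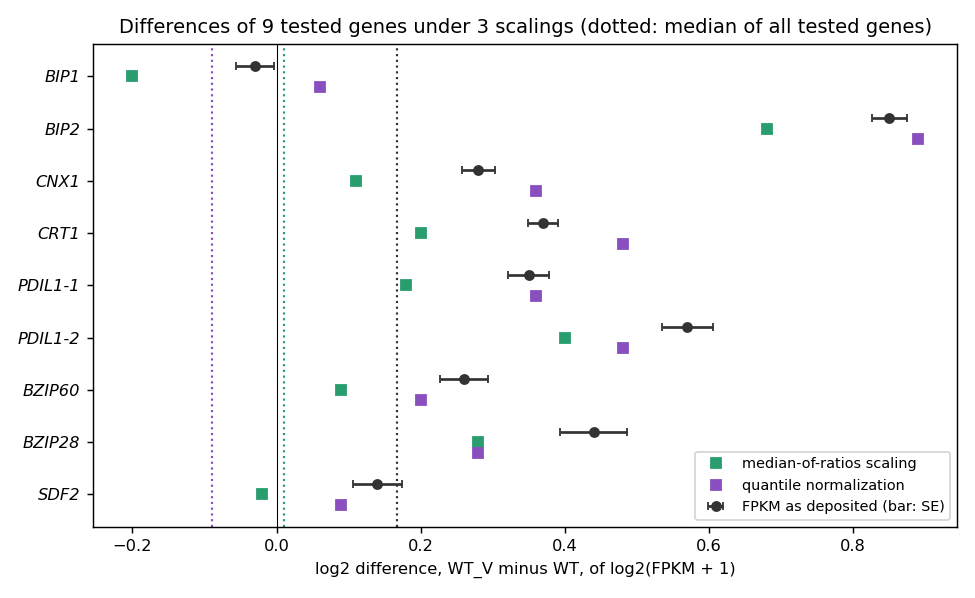
Log2 difference (WT_V minus WT) of log2(FPKM + 1) for the 9 tested genes with deposited FPKM (black, bar SE, n = 3 per set), median-of-ratios scaling (green) and quantile normalization (purple). Dotted lines are the medians of all tested genes under each, at 0.167, 0.011 and -0.09. BIP2 lies farthest to the right under all 3, and BIP1 and SDF2 change sides of 0.

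A further 58 ER genes, listed by role, gave the setting of these differences. Of the 56 that passed the filter, 41 (73.2%) were called higher, 5 (8.93%) lower and 10 neither, with a median log2 difference of 0.21, where 51.9% of all tested genes were called higher and 24.1% lower at a median of 0.17. After median-of-ratios scaling 23 (41.1%) were higher, near the 37.7% of all tested genes, and 13 (23.2%) lower against 35.6%. After quantile normalization 28 of the 56 were higher against 29.8% of all, and 11 (19.6%) lower against 44.9%.

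With deposited values, only the partners of BiP among the further ER lists had every gene called higher. These were 7 of 7, against 51.9% of all tested genes, at a median log2 difference of 0.56. With median-of-ratios scaling 6 of 7 were higher, against 37.7% of all. With quantile normalization 7 of 7 were higher, against 29.8%, at a median of 0.35. With TPM scaling every gene of the lectin cycle was also called higher, 6 of 6, against 57.4% of all. ERDJ3A, a J-domain protein needed for heat tolerance of pollen tubes, reached 3.32 ± 0.304 FPKM against 1.12 ± 0.302 in WT (SD, n = 3, here and below; log2 difference 1.03, adjusted p = 1.1e-05). ERDJ2B, a J-domain protein of the translocation pore, measured 7.05 ± 0.316 against 3.74 ± 0.587 (0.77, adjusted p = 1.97e-05). After quantile normalization the differences were 0.35 for ERDJ3A and 0.3 for ERDJ2B. SHD, the Hsp90 of the ER, measured 95.1 ± 2.55 against 61.3 ± 0.935 FPKM (0.63, adjusted p = 6.15e-09). SHD and BIP2 were thus higher by 1.55 and 1.82 times, in libraries where BIP1 stood at 0.981 times its WT mean.

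In the lectin cycle 4 of 6 genes (66.7%) were called higher and 0 lower, against 51.9% and 24.1% of all tested genes. Their median was 0.17, which equals that of all genes to this precision. With median-of-ratios scaling 2 (33.3%) were higher and 2 (33.3%) lower, against 37.7% and 35.6% of all. Quantile normalization gave 3 (50%) higher and 0 lower, against 29.8% and 44.9%. EBS1, the glucosyltransferase that marks unfolded glycoproteins for another round, measured 20.3 ± 0.478 against 14.6 ± 0.585 FPKM (0.44, adjusted p = 6.29e-06). CRT2, the calreticulin closest to CRT1, measured 65.2 ± 1.68 against 51.8 ± 1.70 (0.33, adjusted p = 4.97e-06). GCS1, which trims the first glucose, measured 13.4 ± 0.55 against 11.5 ± 1.41 (0.21, adjusted p = 0.0253), with overlapping sets. The call of GCS1 ended with median-of-ratios scaling (adjusted p = 0.539), quantile normalization (0.608), no filter (0.0572), no trend (0.0525), and without WT_V library 1 (0.0972) or 2 (0.0646) or WT library 2 (0.0748) or 3 (0.0955).

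Among 13 oxidative folding genes 9 (69.2%) were called higher and 2 (15.4%) lower, at a median of 0.16, against 51.9% and 24.1% of all tested genes. With median-of-ratios scaling 5 (38.5%) were higher and 4 (30.8%) lower, against 37.7% and 35.6% of all. Quantile normalization gave 4 (30.8%) higher and 3 (23.1%) lower, against 29.8% and 44.9%. PDIL1-3, a relative of the PDIL1 genes above, measured 15.9 ± 0.853 against 7.53 ± 0.661 FPKM (0.98, adjusted p = 2.24e-07), a larger factor (2.11) than that of PDIL1-1 or PDIL1-2. PDIL5-3 measured 12.5 ± 0.233 against 7.99 ± 0.574 (0.59, adjusted p = 6.05e-06). ERO1, the oxidase that recharges disulfide isomerases, measured 2.34 ± 0.216 against 1.47 ± 0.325 (0.44, adjusted p = 0.0041), and its difference was -0.26 with quantile normalization (adjusted p = 0.0566).

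Among the sensors and outputs of the response 9 of 11 genes were tested, at a median of 0.21. Of these, 7 (77.8%) were called higher and 0 lower, against 51.9% and 24.1% of all tested genes. After median-of-ratios scaling 3 (33.3%) were higher and 1 (11.1%) lower, against 37.7% and 35.6% of all. After quantile normalization 4 (44.4%) were higher and 3 (33.3%) lower, against 29.8% and 44.9%. The 3 lower genes were IRE1B (-0.14, though called higher at 0.21 with deposited values), S1P (-0.22) and S2P (-0.3). IRE1A, the sensor that splices BZIP60, measured 24.0 ± 0.549 against 15.9 ± 0.267 FPKM (0.57, adjusted p = 3.01e-07). NAC062, a membrane-anchored factor of the response, measured 35.0 ± 1.07 against 23.3 ± 0.392 (0.56, adjusted p = 1.47e-07). BI-1, a cell death suppressor of the ER membrane, measured 85.3 ± 1.71 against 65.4 ± 0.987 (0.38, adjusted p = 2.47e-07). BZIP49 and NAC103 were under the filter with deposited values. Under TPM scaling NAC103 passed it and was called higher (log2 difference 1.08, adjusted p = 6.09e-05 by limma), as were 57.4% of all tested genes. NAC103, a target of bZIP60, was looked at after its values were seen, and stood at 1.6, 1.08 and 1.41 FPKM in WT_V and 0.241, 0.443 and 0.237 in WT, with no overlap. BZIP49 was near 0, at 0.107, 0.0849 and 0.0914 FPKM in WT_V and 0, 0 and 0.0822 in WT, also with no overlap. Among tested genes, 77.6% had no overlap either.

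ER-associated degradation moves misfolded proteins out to the proteasome. Of its 13 genes 7 (53.8%) were called higher and 3 (23.1%) lower, at a median of 0.15, close to the shares of all tested genes. With median-of-ratios scaling 4 (30.8%) were higher and 5 (38.5%) lower, against 37.7% and 35.6% of all. Quantile normalization gave 4 (30.8%) higher and 5 (38.5%) lower, against 29.8% and 44.9%. HRD1B, which encodes a ubiquitin ligase of the ER membrane, was lower, at 25.1 ± 0.414 against 41.8 ± 0.884 FPKM (-0.71, adjusted p = 1.07e-08). UBC32, a ubiquitin-conjugating enzyme, measured 62.4 ± 1.72 against 45.3 ± 2.47 (0.46, adjusted p = 1.75e-06), and the mannosidase gene MNS4 11.3 ± 0.341 against 8.11 ± 0.137 (0.44, adjusted p = 2.17e-05). Of 8 genes of translocation and glycosylation 7 (87.5%) were called higher and 0 lower, at a median of 0.22, against 51.9% and 24.1% of all tested genes. With median-of-ratios scaling 3 (37.5%) were higher and 1 (12.5%) lower, against the same 37.7% and 35.6%. Quantile normalization gave 6 (75%) higher and 0 lower, against 29.8% and 44.9%. The SEC61 alpha gene AT1G29310 measured 14.0 ± 0.433 against 9.95 ± 0.515 FPKM (0.45, adjusted p = 2.15e-05). STT3B, a subunit of oligosaccharyltransferase, measured 17.1 ± 0.156 against 12.6 ± 0.197 (0.42, adjusted p = 6.6e-06). SEC61B measured 147 ± 3.60 against 115 ± 2.15 (0.36, adjusted p = 2.53e-07).

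**Figure D4:**
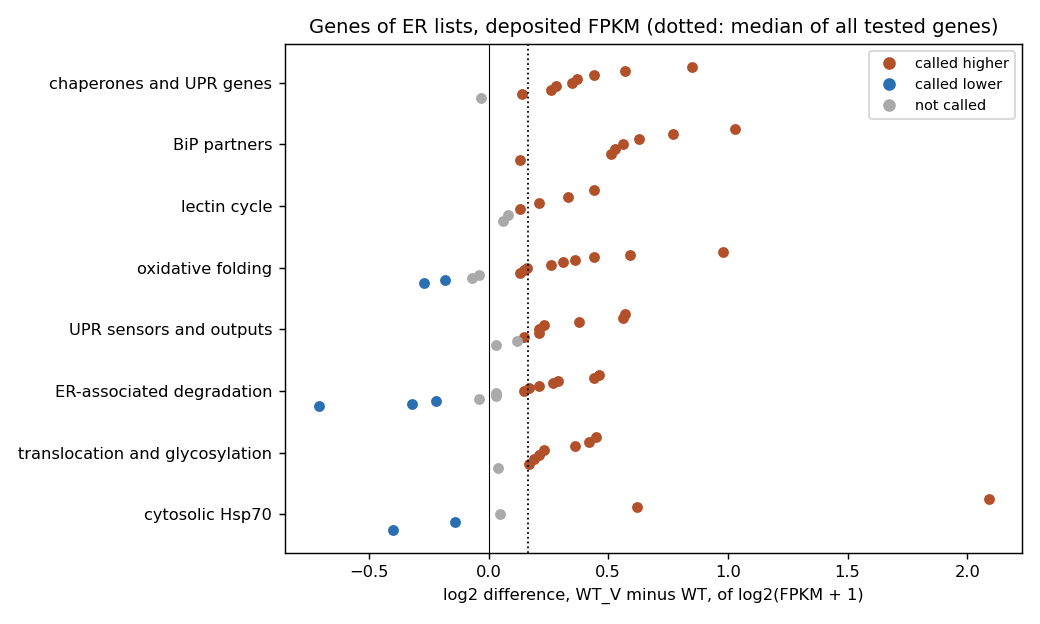
Log2 difference (WT_V minus WT) of log2(FPKM + 1), 1 point per tested gene, for the 9 chaperone and UPR genes, the 6 further ER lists and cytosolic Hsp70. Orange points were called higher, blue ones lower and grey ones neither, and the dotted line is the median of all tested genes (0.167). All 7 BiP partners are orange, while degradation genes spread from -0.71 to 0.46.

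The cytosolic relatives of BiP did not move as 1 group. Of 5 genes 2 (40%) were called higher and 2 (40%) lower, against 51.9% and 24.1% of all tested genes. Median-of-ratios scaling gave 2 (40%) higher and 3 (60%) lower, against 37.7% and 35.6% of all. Quantile normalization gave 4 (80%) higher and 1 (20%) lower, against 29.8% and 44.9%. HSC70-1, the abundant constitutive form, measured 874 ± 3.66 FPKM in WT_V and 1160 ± 7.80 in WT (-0.40, adjusted p = 2.05e-10), although its difference was 0.10 with quantile normalization (adjusted p = 8.15e-05). HSC70-2 measured 50.2 ± 0.603 against 11.1 ± 0.55 (2.09, adjusted p = 1.24e-11), and HSP70B, a heat-inducible form, 8.44 ± 0.0917 against 5.13 ± 0.316 (0.62, adjusted p = 6e-06).

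Promoters of chaperone genes are known to hold short motifs read by bZIP28 and bZIP60. The 250 bases before each annotated gene start were searched on both strands for the ER stress response element ERSE (CCAAT and CCACG with 9 bases between them), for ERSE-II (ATTGG and CCACG with 1 base between), for pUPRE-II (CC and CCACG with 12 bases between, which every ERSE also matches), for P-UPRE and for the UPRE core (TGACGTG). An ERSE match stood before 1 of the 10 genes, PDIL1-2, before 6 of the 58 further ER genes (10.3%) and before 84 of 27443 protein-coding genes (0.306%). The UPRE core stood before 2 of the 10 (CRT1 and PDIL1-1), 7 of the 58 (12.1%) and 2.90% of all genes. pUPRE-II stood before CRT1, where it overlaps a UPRE core, and before PDIL1-2, at its ERSE. It stood before 10.3% of the 58 and 1.14% of all genes. ERSE-II stood before 0 of the 10 and 0 of the 58 genes and before 0.0619% of all, and P-UPRE before 0 of the 27443. The windows of the genes with a match are printed 5′ to 3′ on the coding strand, from assembly TAIR10.1. The fixed bases of ERSE and UPRE core matches are in capitals (CACGTCA is the UPRE core on the other strand). Windows of BIP1 and BIP2, whose differences diverged, are printed too, and none of the searched motifs matched in full there.
PDIL1-2 (chr1:29126398-29126647, plus strand, ERSE): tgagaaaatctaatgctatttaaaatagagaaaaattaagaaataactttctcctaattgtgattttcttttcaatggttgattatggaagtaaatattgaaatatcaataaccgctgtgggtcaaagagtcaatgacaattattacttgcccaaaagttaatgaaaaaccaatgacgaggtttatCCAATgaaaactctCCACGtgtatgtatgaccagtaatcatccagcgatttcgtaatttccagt
CRT1 (chr1:21092710-21092959, minus strand, UPRE core): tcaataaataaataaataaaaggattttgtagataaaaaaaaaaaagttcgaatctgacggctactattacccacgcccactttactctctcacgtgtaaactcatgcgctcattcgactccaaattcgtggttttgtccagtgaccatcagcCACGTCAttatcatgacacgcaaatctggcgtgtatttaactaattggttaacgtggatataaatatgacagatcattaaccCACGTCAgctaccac
PDIL1-1 (chr1:7645360-7645609, plus strand, UPRE core): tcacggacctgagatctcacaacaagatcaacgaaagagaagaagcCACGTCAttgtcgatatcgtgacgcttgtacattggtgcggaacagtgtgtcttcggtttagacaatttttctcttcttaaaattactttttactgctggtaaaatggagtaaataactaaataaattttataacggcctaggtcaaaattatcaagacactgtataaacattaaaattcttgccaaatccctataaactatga
BIP1 (chr5:10543559-10543808, minus strand): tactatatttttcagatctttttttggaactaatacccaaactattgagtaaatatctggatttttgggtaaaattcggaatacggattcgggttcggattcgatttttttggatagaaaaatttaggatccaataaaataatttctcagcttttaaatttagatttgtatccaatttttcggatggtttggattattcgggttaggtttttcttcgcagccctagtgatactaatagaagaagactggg
BIP2 (chr5:16810694-16810943, minus strand): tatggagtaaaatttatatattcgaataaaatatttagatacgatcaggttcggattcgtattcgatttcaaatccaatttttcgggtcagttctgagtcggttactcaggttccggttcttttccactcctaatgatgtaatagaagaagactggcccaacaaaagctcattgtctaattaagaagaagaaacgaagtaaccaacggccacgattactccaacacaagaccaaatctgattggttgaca
The annotated start need not be the start used in stems. All 6 further ER genes with an ERSE (P58IPK, HSP70-17, SHD, EBS1, BI-1 and HRD3A) were called higher, at a median log2 difference of 0.49, against 35 of 50 tested ER genes without one at 0.21. HRD3A was not called with median-of-ratios scaling (-0.01, adjusted p = 0.763) or quantile normalization (0.05, adjusted p = 0.199). Of the 7 further ER genes with a UPRE core, 6 were called higher and 1, EBS7, lower, at a median of 0.44, against 35 of 49 higher without one at 0.21. Over all tested genes with an annotated window, the 74 with an ERSE were called higher in 45.9% at a median of 0.13, and the 18409 without in 52.7% at 0.17. The 615 with a UPRE core were called higher in 56.9% at 0.22, and those without in 52.6% at 0.17. These shares are descriptions without a test.

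**Figure D5:**
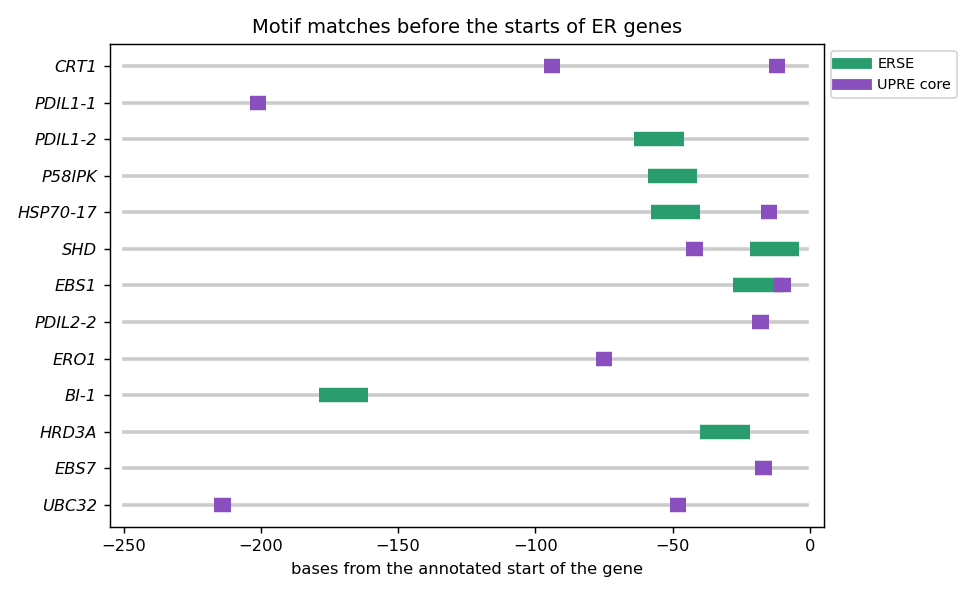
Matches to ERSE (green) and the UPRE core (purple) in the 250 bases before the annotated start of the 13 ER genes that hold any, with the start at the right. ERSE matches lie 4 to 64 bases before the start in 6 genes and 161 to 179 bases before it in BI-1.

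The pattern of CRT1, the most abundant of the 10 genes, was shared widely. Over the 6 libraries, 2465 of 19143 other tested genes had a Pearson correlation of log2(FPKM + 1) with CRT1 above 0.99, among them BIP2, CNX1 and PDIL1-2. The closest were APM1, AT1G67820, CSLG3, AT4G27250 and REM1, at 0.9999 to 0.99971. The 6 libraries form 2 sets, so such a correlation mainly records a step in the same direction between them, whatever its size. CSLG3, for example, had means of 11.9 FPKM in WT_V and 0.514 in WT, where CRT1 had 138 and 107. The correlation with CRT1 was 0.922 to 0.997 for the other called genes and -0.484 for BIP1.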

How the data were processed

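Stem RNA gave 6 libraries. The authors deposited 1 table of FPKM values. Per the submitters' processing notes, the tools included HTSeq 0.6.1, TopHat2 2.0.12 and Bowtie2 2.2.3. No source used here gives the annotation, genome build, strandedness or the handling of reads with several matches. The genes described and all lists were chosen with earlier results of these data known.

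Fragments were recovered by multiplying FPKM with the exon length of RefSeq TAIR10.1. The values were whole, within 0.05 fragments, for 99.05 to 99.27% of genes with 1 transcript, and for 6 of the 10 genes described. For the other 4, several lengths gave whole fragments, and the one nearest to the annotated length was used. Fragments describe depth only, and counting error alone is covered by them. Between libraries of a set, squared differences averaged 3.25 to 3.5 times sampling noise. All 6 libraries were kept as separate samples, although this scatter may be technical and does not show that they came from separate plants.

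Testing covered genes whose mean reached 1 FPKM, on log2(FPKM + 1), WT_V minus WT, with limma 3.58.1 (R 4.3.3), an intensity trend and Benjamini-Hochberg adjustment at 0.05 over all 19144 genes. Differences on this scale understate changes of low genes. The procedure was tested on simulated data in which few genes changed, as many up as down. Such a test cannot show how the calls hold where most genes differ, as in these libraries. Ratios between genes used exact two-sided permutation tests. The text names all 10 genes, up to 3 called genes with the greatest change in each further list, and the 5 genes most correlated with the most abundant one. Coding sequences were aligned with Biopython 1.88, and motifs were chosen after the values were seen. Identifiers matched a reference locus in 32548 of 34484 cases. The alternatives were pseudocounts of 0.1 and 5, no filter, a minimum of 5 FPKM, 3 other scalings, a replicate block, no trend, removal of organelle and ENSRNA identifiers, and leaving out each library.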

Additional observations from a re-analysis of the deposited data

How the results depend on the processing

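Of the 9 tested genes, 8 were called higher under each pseudocount, filter, left-out library, the replicate block (8), no trend and TPM scaling. Of all tested genes, 51.9% were called higher with deposited values and 57.4% under TPM scaling. Quantile normalization gave 9 of the 9 genes, where 29.8% of all tested genes were called higher. Median-of-ratios scaling gave 7, where 37.7% of all were. Calls of all genes in either direction numbered 14446 and 14562 with pseudocounts of 0.1 and 5, and 14162 with no trend. BIP1 was called lower with median-of-ratios scaling (1 gene, log2 difference -0.20), and its difference was 0.06 with quantile normalization and 0.03 with TPM scaling. SDF2 was at -0.02 with median-of-ratios scaling. Of the further ER genes, 23 (41.1%) were called higher and 13 (23.2%) lower with median-of-ratios scaling, against 37.7% and 35.6% of all tested genes. With quantile normalization 28 (50%) were higher and 11 (19.6%) lower, against 29.8% and 44.9%. Among named further genes the sign changed with quantile normalization for GCS1 (-0.04), ERO1 (-0.26) and HSC70-1 (0.10). In an alternative chosen after seeing the data, quantile normalization moved the ratio differences from -0.89 to -0.826 (BIP1 to BIP2), -0.232 to -0.118 (PDIL1-1 to PDIL1-2), -0.0864 to -0.112 (CNX1 to CRT1) and -0.198 to -0.073 (BZIP60 to BZIP28). The cause was not tested. Same-numbered libraries did not deviate together (correlations of -0.016, -0.016 and 0.014), and with the replicate block 14477 genes were called against 14550 without it. Leaving out each library in turn gave log2 differences of 0.84 to 0.86 for BIP2, and no fit that left out a library ended the call of any of the 8 genes. Those fits called 13545 to 14292 of all genes in either direction. Depth limits BIP3, at 2 to 44 fragments a library.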
